A study of Mus musculus with 4 samples.

Results

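C1q tumour-associated macrophages were described in transplanted mouse mammary tumours of the Py8119 line, a mesenchymal breast cancer line established from a mouse with the polyoma middle T oncogene in its mammary glands. The cells were chosen by measured values, limits on UMIs (the molecule counts of single-cell sequencing) scaled to 10000 UMIs of the cell. Tyrobp and Fcer1g, myeloid signalling adaptors, had to sum to at least 10 per 10000, C1qa, C1qb and C1qc to at least 20, and Mmp12, Il1rn and Nos2 to under 10. The tumour genes Krt8, Krt18, Tm4sf1 and Cdkn2a had to sum to under 10, Cd3e, Cd3g and Ncr1 had to have 0 UMIs, and Top2a, Mki67, Cdk1 and Birc5 had to have fewer than 2 UMIs. A cell also needed at least 300 genes. The limits selected 6235 of 45220 deposited cells, with 745 in library shRNA 1, 1207 in shRNA 2, 1803 in control 1 and 2480 in control 2.

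The 2 shRNA libraries came from tumours whose Py8119 cells carried an shRNA against Sema4d, and the 2 control libraries from tumours of the same line labelled NC, with a control genotype. All 4 tumours were digested for 30 min at 37 °C with a mouse tumour dissociation kit and profiled in droplets, and the labels name no sort. The labels do not say whether the 2 libraries of a group came from different animals, so the p-values below measure the spread between libraries, which may be technical. The shRNA was placed in the tumour cells, so the macrophages compared here are host cells that did not carry it.

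C1q is the recognition molecule of the classical complement pathway. It is built from the products of the neighbouring genes C1qa, C1qb and C1qc, and macrophages are its main source in most tissues. C1q-high macrophages in tumours are known for lysosomal, lipid-handling and antigen-presentation genes, and they are commonly set apart from inflammatory monocyte-derived cells. SEMA4D is a membrane semaphorin that can be shed, and its known receptors are plexin B1, plexin B2 and, on immune cells, CD72.

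The 3 C1q genes lie side by side on the minus strand of chromosome 4 in mouse build GRCm38, at chr4:136880129-136886187 for C1qb, chr4:136889804-136893065 for C1qc and chr4:136895917-136898803 for C1qa. The promoter sequences of C1qb and C1qc are shown because these genes define the cells and rose and fell together from cell to cell. They come from RefSeq on GRCm38.p6, cover 250 bases before to 50 after the start, and lie at chr4:136886151-136886450 and chr4:136892865-136893164 on the minus strand. Capitals mark GAGGAA, the core read by PU.1, a macrophage lineage factor, and TGCTGA, part of the site of MAF-family factors, on either strand.

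C1qb: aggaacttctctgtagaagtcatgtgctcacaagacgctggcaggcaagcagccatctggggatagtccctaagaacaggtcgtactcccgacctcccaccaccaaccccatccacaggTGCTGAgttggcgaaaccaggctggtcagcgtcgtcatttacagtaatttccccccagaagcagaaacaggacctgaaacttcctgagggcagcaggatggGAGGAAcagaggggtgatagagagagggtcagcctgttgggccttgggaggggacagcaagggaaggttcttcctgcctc
C1qc: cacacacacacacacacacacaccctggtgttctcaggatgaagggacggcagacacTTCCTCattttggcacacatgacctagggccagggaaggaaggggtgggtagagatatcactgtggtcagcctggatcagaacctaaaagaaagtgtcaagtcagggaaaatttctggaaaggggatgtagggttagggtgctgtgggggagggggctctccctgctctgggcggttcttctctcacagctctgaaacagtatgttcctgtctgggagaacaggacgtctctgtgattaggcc

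The C1qb window held both motifs on its own strand, TGCTGA from base 120 and GAGGAA from base 221. The C1qc window held GAGGAA on the opposite strand, read as TTCCTC from base 58, and no TGCTGA. Of 32851 promoters of the same 300 bases, 28.3% held GAGGAA, 19.5% held TGCTGA and 5.36% held both, counting either strand. The matches are letters in these windows and were not tied to binding in these cells.

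The whole libraries held 10575 and 13173 cells in shRNA tumours and 10874 and 10598 cells in control tumours, with 83513906 to 119758159 UMIs per library. Serial cell names recur between libraries, in 756 to 3782 cells per pair, but no pair of libraries held a cell with the same totals. Member cells had a median of 4612 and 4097 UMIs in shRNA 1 and shRNA 2, against 4795 and 3856 in control 1 and control 2. One library stood apart. In C1q macrophages of shRNA 1 the chemokine gene Ccl8 reached 3087 CPM (counts scaled to the same total in each library), against 481 in shRNA 2, 461 in control 1 and 441 in control 2, and Chil3 reached 233 against 1.37, 6.35 and 1.39. Results that rest on shRNA 1 are given below with its own value. The predicted gene Gm42418 took 10.2% to 15.5% of member UMIs. The label check of the targeted gene was weak in these cells. Sema4d had 6.5 and 11.5 CPM in non-myeloid cells of shRNA tumours and 12.7 and 11.5 in those of control tumours (log2 change -0.43, edgeR adjusted p = 0.60), a difference that did not pass the test. Library shRNA 1 lay below both controls and shRNA 2 did not.

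The cells carried the macrophage markers they were named for. Csf1r, the receptor for colony stimulating factor 1, ran from 355 to 425 CPM in the 4 libraries, and the macrophage surface gene Adgre1 ran from 123 to 149. Apoe, the apolipoprotein that carries lipid out of macrophages, had 16133 and 15195 CPM in shRNA tumours and 14806 and 16162 in control tumours. A list of 6 dendritic-cell genes summed to 2.37 to 5.32 CPM, 3 B-cell genes to 1.31 to 2.06, and the neutrophil gene Ly6g had no UMI in any member. A list of 5 tumour-cell genes summed to 214 and 186 CPM in members of shRNA tumours and 216 and 228 in those of control tumours, against 134 to 159 in the other gated cells and 396 to 513 in non-myeloid cells. The part of tumour-cell RNA in the results was not tested. Monocyte genes summed to 348 and 111 in members of shRNA tumours and 122 and 99.4 in those of control tumours, and the 6 neutrophil genes to 14.8 to 28.7 in the 4 libraries. Fibroblast genes summed to 85.7 and 25.4 in shRNA tumours and 24.3 and 21.8 in control tumours, and red-cell genes to 53.7 and 13.2 against 17.2 and 13.3, so that shRNA 1 was the highest library for monocyte, fibroblast and red-cell genes.

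**Figure D1:**
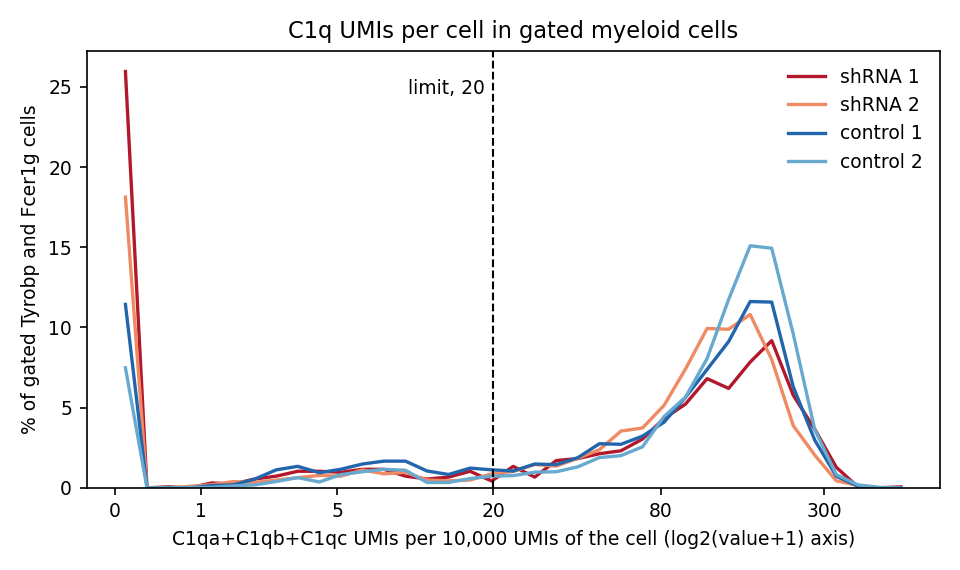
C1qa, C1qb and C1qc UMIs per 10000 UMIs of the cell (x axis, on a log2(value+1) scale) against the percentage of gated Tyrobp and Fcer1g cells (y axis), one line per library, red for the shRNA and blue for the control libraries; the dashed line is the limit of 20. Most members lie well above the limit in every library, and the peak at 0 is taller in both shRNA libraries.

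The limit cut through a thin part of the spread, as the plot of C1q UMIs per cell shows. Only 55 members lay between 20 and 25 per 10000, with a median of 22.8, and 99 cells just below it lay between 15 and 20, with a median of 17.7. Among the members, 81.3% to 88.7% in each library were at 80 or over. The limit on Mmp12, Il1rn and Nos2 fell in a busier stretch, since 703 members had between 5 and 10 of these UMIs per 10000 and 309 cells just over the limit of 10 had up to 15. In shRNA 1 and shRNA 2, 56.0% and 60.3% of members had no UMI of these genes, against 63.9% and 69.7% in control 1 and control 2.

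Fewer of the cells were C1q macrophages in Sema4d shRNA tumours. Among cells with at least 300 genes they made up 7.07% of all cells in shRNA 1 and 9.19% in shRNA 2, against 16.6% in control 1 and 23.4% in control 2. The exact (Clopper-Pearson) 95% intervals of these shares, which cover counting error only, were 6.58% to 7.57% in shRNA 1, 8.70% to 9.70% in shRNA 2, 15.9% to 17.3% in control 1 and 22.6% to 24.3% in control 2. Both shRNA shares lay below both control shares. The means were 8.13% ± 1.502 in shRNA tumours and 20.04% ± 4.82 in control tumours (SD, n = 2 each), a difference of -11.9 percentage points. The exact two-sided permutation test gave p = 0.333, which is the smallest p that 2 libraries against 2 can give, so the test could not have passed 0.05.

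Tyrobp and Fcer1g cells of every kind made up 19.5% and 20.4% of cells in shRNA tumours, against 32.3% and 40.3% in control tumours. C1q macrophages were also a smaller share within that compartment, at 36.3% and 45.1% in shRNA tumours against 51.5% and 58.1% in control tumours (exact p = 0.333). Of the gated cells, those that also passed the tumour, lymphocyte and cycling limits, members were 45.3% and 58.5% in shRNA tumours and 65.3% and 75.5% in control tumours (exact p = 0.333). A share of one kind falls when another rises, and these counts cannot tell apart a loss of C1q macrophages from a gain of other cells.

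The other gated cells were of 2 kinds. Cells with C1q and with Mmp12, Il1rn and Nos2 at 10 or more per 10000 were 18.3% and 14.9% of gated cells in shRNA tumours, against 9.05% and 9.46% in control tumours. Cells below the C1q limit were 36.4% and 26.6% in shRNA tumours, against 25.7% and 15.1% in control tumours. The first kind was higher in both shRNA libraries, and for the second kind 36.4% and 26.6% also lay above both control values, the nearer pair being 26.6% in shRNA 2 and 25.7% in control 1. Cells left out by the cycling limit were 14.6% and 15.3% of Tyrobp and Fcer1g cells in shRNA tumours and 17.5% and 20.5% in control tumours.

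**Figure D2:**
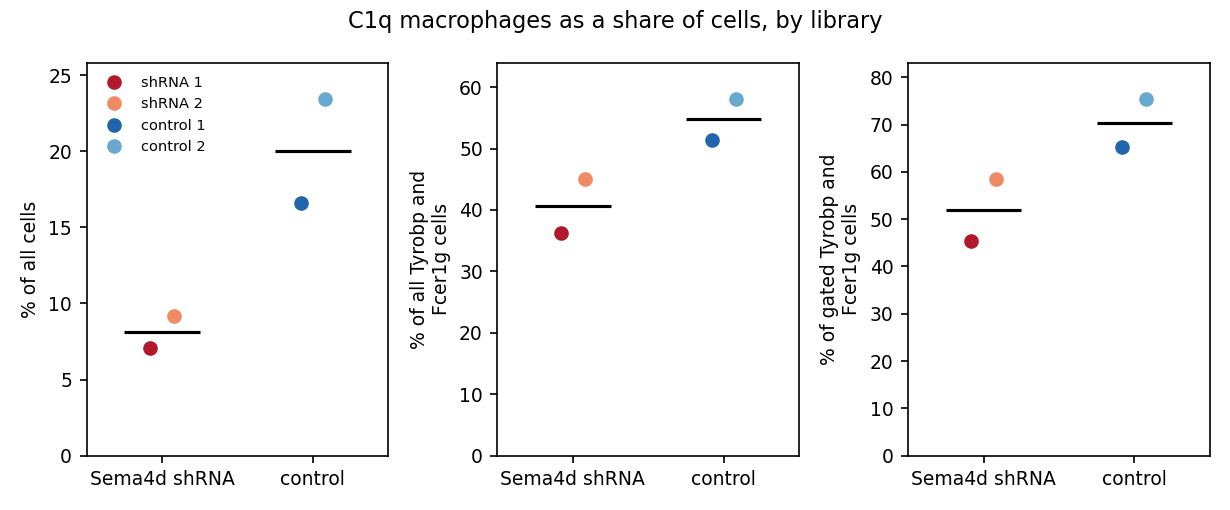
C1q macrophages as a percentage of all cells, of all Tyrobp and Fcer1g cells and of the gated Tyrobp and Fcer1g cells (y axes, from 0), one point per library and a bar at the group mean, shRNA left and control right. Both shRNA points lie below both control points with each denominator.

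C1q RNA in non-myeloid cells followed these shares. C1qa, C1qb and C1qc summed to 70.8 and 73.0 CPM in cells without the myeloid adaptors of shRNA tumours, against 185 and 218 in those of control tumours. In the members themselves the same sum was 17157 and 14202 in shRNA tumours and 15343 and 16008 in control tumours. The part of free RNA in the shares was not tested. Members marked by a doublet score were 347, or 5.57%.

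Beside the other gated myeloid cells, C1q macrophages had higher levels of several genes of resident macrophages in every library. These ratios describe the cells and were not tested, since the limits that chose the members act on the same cells and genes. Among genes outside the limits and with at least 50 CPM, the largest ratios in the library nearest to 1 were those of Ptgs1, which makes prostaglandin precursors, at 3.79 to 4.87 times, Olfml3 at 3.62 to 4.20 times and Ntpcr at 3.45 to 4.70 times. Fcrls, an Fc receptor-like gene of resident macrophages in mice, was 3.04 to 4.96 times as high, the scavenger receptor Stab1 2.85 to 4.48 times, and the antibody-recycling receptor Fcgrt 2.74 to 4.36 times. Hpgds, the prostaglandin D synthase, the membrane gene Ms4a7 and the fractalkine receptor Cx3cr1 were also among the 12 highest, with Rab3il1, Ccl8 and Pmepa1. Some of these levels were shared with the C1q cells that had Mmp12. Those cells averaged 429 CPM of Ms4a7 and 530 of Ccl8, against 38.4 and 26.7 in cells below the C1q limit. Ptgs1 and Cx3cr1 averaged 30.6 and 51.0 in them, below the 61.4 to 91.0 and 118 to 183 of members.

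The 12 genes of lowest ratio were Gzma, Plac8, Hp, Ly6c2, Ly6i, Ifi205, Cytip, Mxd1, Il1b, Gsr, Malt1 and Napsa. Ly6c2, which marks classical monocytes in mice, had 17.6 and 20.1 CPM in members of shRNA tumours and 17.4 and 11.5 in those of control tumours, and it was 17.2 to 33.8 times as high in the other cells. Plac8 was 31.8 to 55.9 times as high in the other cells, Il1b, the inflammatory cytokine, 4.43 to 9.01 times, and the granzyme gene Gzma 48.6 to 85.8 times. Gzma is a killer-cell gene, and NK-cell genes summed to 145 to 648 CPM in the other cells against 2.09 to 12.3 in members, although cells with a UMI of Cd3e, Cd3g or Ncr1 had been left out. These low levels were shared with the C1q cells that had Mmp12, which averaged 20.5 CPM of Ly6c2, 38.9 of Plac8 and 7.5 of Gzma, whereas the C1q-low cells averaged 872, 2533 and 554. Of the general macrophage markers, Cd68, a lysosomal membrane gene, had ratios of 0.953 to 1.14, and the monocyte and macrophage receptor Cd14 was 0.391 to 0.665 times as high in members.

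Arg1 and Spp1, often used to name tumour macrophage states, were not higher in these cells in every library. Arg1, the arginase that uses up arginine, had 5283 and 4148 CPM in members of shRNA tumours and 5737 and 3612 in those of control tumours. Its ratios to the other cells were 0.784 to 1.09. Arg1 averaged 7288 in the C1q cells with Mmp12, above the members, and 2191 in the C1q-low cells, below them. Spp1, the secreted phosphoprotein, had ratios of 0.364 to 0.844. Trem2, the lipid receptor of phagocytes, was 1.66 to 2.10 times as high in members, and the chemokine Cxcl9, which draws T cells, 2.08 to 2.96 times. Trem2 had 418 to 449 CPM in members, and averaged 362 in the C1q cells with Mmp12 and 77.1 in the C1q-low cells. Folr2, a marker of resident tissue macrophages, was 2.13 to 4.52 times as high, but Lyve1 stood at 0.475 to 5.31 CPM and Cd163 at 1.39 to 2.61, both near the lower end of what was counted.

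The spread among members differed widely between genes. After each cell was thinned to 1000 UMIs, the variance divided by the mean was compared with 1.02. This was the median over 2009 genes, of at least 0.05 UMIs per cell, of each gene's lowest value among the 4 libraries. The highest values were those of the predicted genes Gm42418, at 52.8 to 81.6, and Gm26870, at 14.2 to 52.3, and the noncoding Malat1, the ferritin chain Fth1 and Jarid2 were also among the first 7. Apoe reached 13.8 to 14.8 in the 4 libraries, Ccl8 5.94 to 13.4, Cxcl9 5.45 to 6.27, Lyz2 5.36 to 7.08, Cd74, the invariant chain of MHC class II, 4.83 to 6.25 and Arg1 4.82 to 5.22. Ccl5, Ccl6, Isg15 and Spp1 were also high in each library, each at least 3.56. C1qa, whose level the limits used, was at 2.13 to 2.74.

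Within each library some of these genes rose and fell together from cell to cell. These rank correlations of thinned cells describe cells that share a library and a depth, and no p is given. C1qa followed C1qc with rho of 0.37 to 0.47, C1qb followed C1qc with 0.34 to 0.42, and the C1q sum followed Apoe with 0.32 to 0.43. The lysosome list followed Apoe with 0.41 to 0.48, and Cd74 followed the class II gene H2-Ab1 with 0.70 to 0.77. Arg1 followed the hypoxia and glycolysis list with 0.40 to 0.45. Arg1 and Cxcl9 ran in opposite directions in all 4 libraries, with rho of -0.22 to -0.16, a weak relation at this depth.

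Members with more C1q had more Apoe and higher sums of the lysosomal and class II lists. The members were split into 3 bands of C1q level, 20 to 40, 40 to 80, and 80 and over per 10000, with 32 to 85 cells per library in the first. Apoe ran from 4534 to 5085 CPM over the 4 libraries in the lowest band, from 6385 to 8610 in the middle one and from 16310 to 17633 in the highest. H2-Ab1, which encodes a class II beta chain, ran from 1488 to 3259 in the lowest band and from 5285 to 7292 in the highest. The lysosome list summed to 9423 to 16662 CPM in the lowest band and 19607 to 21603 in the highest. Gpnmb, a gene of lipid-laden macrophages, had 3.98 to 234 in the lowest band and 6.20 to 19.6 in the highest, and it was lower in the highest band in all libraries but control 2. Tnfrsf9 went the other way from Apoe, with 75.6 to 161 in the lowest band and 15.6 to 37.4 in the highest, and Isg15 had 333 to 929 in the lowest and 307 to 371 in the highest. The lowest band was also shallower, with a median of 1886 to 3570 UMIs per cell against 4158 to 5224 in the highest, and a cell with more of one abundant gene has a smaller CPM for the others. The part of depth in these differences was not tested.

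**Figure D3:**
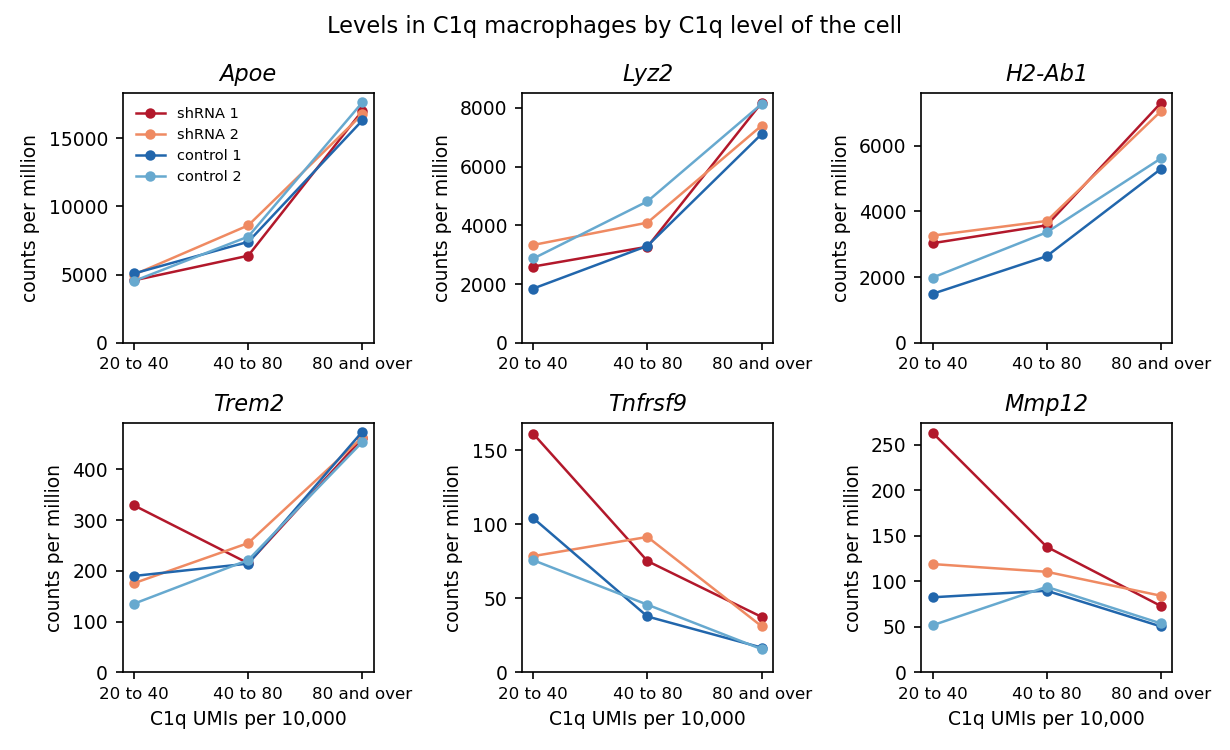
CPM (y axes, from 0) of Apoe, Lyz2, H2-Ab1, Trem2, Tnfrsf9 and Mmp12 summed over C1q macrophages in 3 bands of C1q UMIs per 10000 (x axes), one line per library. Apoe, Lyz2 and H2-Ab1 are highest in the band of 80 and over in all 4 libraries, and Tnfrsf9 is lowest there.

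Between Sema4d shRNA and control tumours, few genes of C1q macrophages passed the test. UMIs were summed over the members of each library, and the 4 sums were compared with the edgeR quasi-likelihood test and Benjamini-Hochberg adjustment. Of 11520 genes tested, 5 were higher in shRNA tumours (0.0434%) and 13 were lower (0.113%) at an adjusted p under 0.05, or 0.156% in all. At an unadjusted p under 0.05 there were 503 higher and 420 lower. Without control 2 no gene was called higher (202 at an unadjusted p under 0.05) and 20 were called lower; without shRNA 1 there were 117 higher and 120 lower, and without shRNA 2 there were 273 and 114. The median log2 change over all genes tested was 0.00. The C1q genes, which the limits used, kept overlapping levels: C1qa had 7348 and 5640 CPM in shRNA tumours and 6622 and 6492 in control tumours, C1qb 4070 and 3674 against 3842 and 4155, and C1qc 5740 and 4889 against 4879 and 5360, values given as a description.

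Tnfrsf9 had the largest rise among the genes past the test in members of shRNA tumours. It encodes 4-1BB, a costimulatory receptor of the tumour necrosis factor receptor family best known on activated T and NK cells. It had 47.5 and 41.4 CPM in shRNA 1 and shRNA 2, against 21.0 and 18.2 in control 1 and control 2. Both shRNA values lay above both control values (log2 change 1.18, SE 0.14, edgeR adjusted p = 0.0049). Without control 2 the log2 change was 1.08 and the adjusted p 0.0819. Non-overlap alone was common, since 19.2% of the genes tested had both shRNA libraries above both controls and 19.4% had both below.

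Il7r also passed. It encodes the interleukin 7 receptor alpha chain, known on T cells and on some macrophages. It had 37.3 and 38.4 CPM in shRNA tumours and 20.5 and 17.2 in control tumours (log2 change 1.01, SE 0.14, edgeR adjusted p = 0.0151). The 2 shRNA values nearly coincided and lay above both controls, and the adjusted p was 0.0605 without control 1 and 0.268 without control 2. Rab21, a small GTPase of early endosomes and integrin traffic, had 44.4 and 45.7 CPM in shRNA tumours and 27.1 and 26.1 in control tumours (log2 change 0.76, SE 0.12, edgeR adjusted p = 0.0391), and it missed the limit without control 1 (adjusted p = 0.321) and without control 2 (adjusted p = 0.498). The call of Rab21 was also lost with DESeq2 (adjusted p = 0.0656), in thinned cells (0.226), in members with no UMI of Mmp12, Il1rn and Nos2 (0.0667) and without mitochondrial genes (0.1001). Gm12868, a predicted gene, and Mmp12, whose level the limits capped, were the other 2 genes called higher. Mmp12 had 89.97 and 90.1 CPM in shRNA tumours and 54.6 and 54.4 in control tumours, given as a description.

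Lymphocyte genes were at low levels in the same members. The 3 T-cell genes found in the files summed to 2.85 and 8.75 CPM in members of shRNA tumours and 1.90 and 1.64 in those of control tumours. The 5 NK-cell genes summed to 12.3 and 5.32 in shRNA tumours and 2.09 and 4.83 in control tumours, with Eomes at 0. A longer list of 10 NK-cell genes summed to 29.0 and 24.5 in shRNA tumours and 11.2 and 14.6 in control tumours. All 4 of its tested genes lay above 0, with a median log2 change of 1.37, and none passed. A longer T-cell list, which holds Il7r itself, summed to 43.0 and 51.8 in shRNA tumours and 27.1 and 21.6 in control tumours. Tnfrsf9 averaged 202 and Il7r 149 CPM in the C1q cells with Mmp12, Il1rn and Nos2, a kind that took a larger share of gated cells in both shRNA libraries than in either control. In members with no UMI of Mmp12, Il1rn and Nos2, an alternative chosen after seeing the data, Tnfrsf9 was still higher (log2 change 0.99, edgeR adjusted p = 0.0306), whereas Il7r had a log2 change of 0.90 and missed the limit (adjusted p = 0.222). The parts of lymphocyte RNA and of RNA from other cells in these changes were not tested.

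The lower genes were mostly of the mitochondrial genome. Of 12 mitochondrial messenger genes tested, all 12 lay below 0 and 11 passed the test, with a median log2 change of -1.12. mt-Cytb, a subunit of complex III, had 450 and 465 CPM in shRNA tumours and 1106 and 1231 in control tumours (log2 change -1.35, SE 0.13, edgeR adjusted p = 0.0014). mt-Co1, the catalytic subunit of complex IV, had 1878 and 1937 in shRNA tumours and 4165 and 3693 in control tumours (log2 change -1.04, SE 0.14, edgeR adjusted p = 0.0151). The mitochondrial share of member UMIs was 0.627% and 0.675% in shRNA tumours and 1.48% and 1.45% in control tumours, with no overlap. The nuclear genes of oxidative phosphorylation did not move with them: of 47 tested none passed, 25 lay above 0 and 22 below, and the median log2 change was 0.00.

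The mitochondrial difference was also present outside the C1q macrophages. The mitochondrial share was 0.464% and 0.673% in the other gated cells of shRNA tumours and 1.69% and 1.52% in those of control tumours, and 0.344% and 0.494% in non-myeloid cells of shRNA tumours and 0.957% and 0.859% in those of control tumours. In the other gated cells 11 of 12 mitochondrial genes were again called lower, with a median log2 change of -1.57. None of these genes passed the test of a different change in members and in other cells. All 12 differences lay above 0, a smaller fall in members, with a median of 0.43. Of the 12, 10 had an unadjusted edgeR p under 0.05, against 730 of 11112 over all genes. The part of RNA quality in these differences was not tested. Without the mitochondrial genes in the table, an alternative chosen after seeing the data, 3 genes were called higher and 1 lower.

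Nkain2 and Gm17268 were the remaining lower genes. Nkain2, which encodes a membrane protein known to interact with the sodium pump, had 193 and 161 CPM in shRNA tumours and 335 and 431 in control tumours (log2 change -1.12, SE 0.15, edgeR adjusted p = 0.0119). Without control 2 the adjusted p was 0.0732. It was lower in the other gated cells too (log2 change -1.32, adjusted p = 0.0027) and had a log2 change of -1.13 in non-myeloid cells (adjusted p = 0.0622). Rab21 shared this breadth in the other direction. It had 43.2 and 42.2 CPM in non-myeloid cells of shRNA tumours and 23.5 and 21.7 in those of control tumours (log2 change 0.92, edgeR adjusted p = 0.0109). The log2 change of Rab21 in members minus that in other gated cells was 0.01 (SE 0.20, adjusted p = 1.00). Tnfrsf9 had 326 and 141 CPM in other gated cells of shRNA tumours, against 108 and 110 in those of control tumours. Both shRNA values lay above both controls there too, but the change did not pass (edgeR adjusted p = 0.846). The log2 change of Tnfrsf9 in members minus that in other gated cells was 0.195 (SE 0.309, edgeR adjusted p = 0.978). The rise of Tnfrsf9 was thus not shown to differ between these 2 cell sets. In non-myeloid cells Tnfrsf9 had 57.8 and 52.7 CPM in shRNA tumours and 50.5 and 47.8 in control tumours. These levels lay above those of the members in every library. The log2 change of Tnfrsf9 there was 0.17 (edgeR adjusted p = 0.465). The difference between members and non-myeloid cells was not tested, nor was the part of RNA from non-myeloid cells in the rise. Ppp2cb, which encodes a phosphatase subunit, had 15.2 and 16.6 CPM in members of shRNA tumours and 9.01 and 9.74 in those of control tumours (log2 change 0.77, adjusted p = 0.230), and in non-myeloid cells its log2 change was 0.99 (adjusted p = 0.0097).

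**Figure D4:**
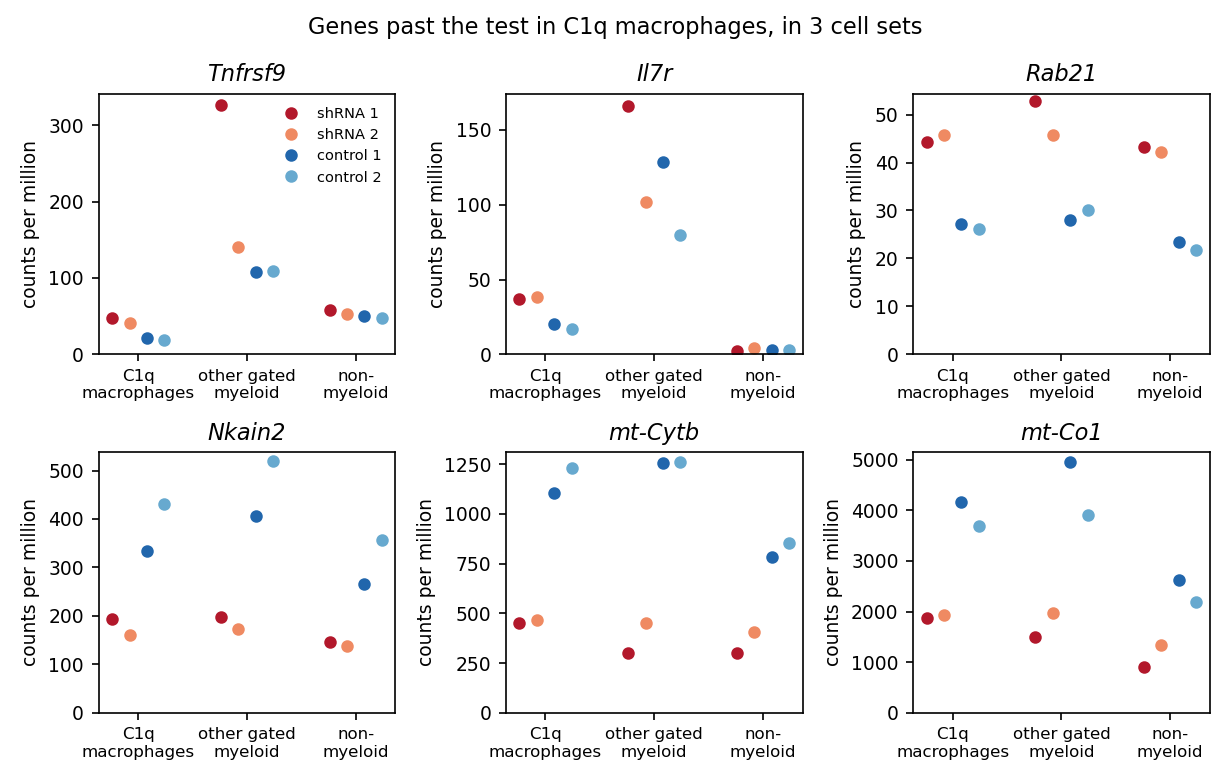
CPM (y axes, from 0) of 6 genes past the test in C1q macrophages, in C1q macrophages, in the other gated myeloid cells and in non-myeloid cells, one point per library, shRNA in red tones left of control in blue tones. Rab21 is higher and Nkain2, mt-Cytb and mt-Co1 are lower in both shRNA libraries in all 3 cell sets, while Il7r is near 0 in non-myeloid cells.

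A further 3 genes had the next smallest p-values among the higher ones and did not pass. Slamf7, a receptor of the SLAM family on macrophages and NK cells, had 126 and 106 CPM in shRNA tumours and 75.8 and 68.6 in control tumours (log2 change 0.68, SE 0.12, edgeR adjusted p = 0.0716). Srxn1, which repairs oxidised peroxiredoxins, had 27.3 and 24.2 in shRNA tumours and 15.5 and 14.2 in control tumours (log2 change 0.79, adjusted p = 0.117). Aldoc, a glycolytic aldolase, had 56.3 and 60.8 in shRNA tumours and 39.9 and 38.2 in control tumours (log2 change 0.58, adjusted p = 0.124). In all 3 genes both shRNA values lay above both controls, as in 19.2% of all genes tested. The 3 were chosen by their p in the same data, so this adds no support.

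The semaphorin receptors of C1q macrophages were present and did not pass the test. Plxnb2, plexin B2, had 85.9 and 81.0 CPM in shRNA tumours and 103 and 101 in control tumours (log2 change -0.29, SE 0.10, edgeR adjusted p = 0.514). Cd72 had 186 and 220 in shRNA tumours and 158 and 193 in control tumours (log2 change 0.21, SE 0.13, adjusted p = 0.745). Plxnd1 had 18.99 and 20.6 in shRNA tumours and 18.8 and 15.3 in control tumours, and Plxnb1 was too low to be tested. Sema4d itself had 52.2 and 60.9 CPM in members of shRNA tumours and 54.8 and 59.8 in those of control tumours. Its log2 change was -0.02 (SE 0.12, edgeR adjusted p = 0.986). Of 26 semaphorin and plexin genes tested none passed, 14 lay above 0 and 12 below.

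The lists of macrophage functions are given by count and median, beside the 0.00 median of all genes tested. Apart from the mitochondrial list, no list held a gene that passed the test in members other than Il7r and Mmp12. Of 21 lipid-associated genes, 20 lay above 0, 12 had both shRNA values above both controls (19.2% of all genes tested did), and the median log2 change was 0.27. Lgals3, a galectin of phagocytes, had 2930 and 3142 CPM in shRNA tumours and 2388 and 2225 in control tumours (log2 change 0.40, edgeR adjusted p = 0.503), and Npc2, a lysosomal cholesterol carrier, 2353 and 2104 against 1767 and 1718 (log2 change 0.35, adjusted p = 0.551). Apoe, the most abundant of them, had a log2 change of 0.02. In the other gated cells 10 of 21 lipid-associated genes lay above 0, with a median of -0.04.

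No antigen-presentation gene passed. Of 11 MHC class II genes, 10 lay above 0, with a median log2 change of 0.24, and of 20 class I genes 18 lay above 0, with a median of 0.11. The class II median was 0.13 without control 1 and 0.44 without control 2, and the class I median 0.04 without shRNA 1 and 0.26 without shRNA 2. H2-Ab1 had 7043 and 6466 CPM in shRNA tumours and 4818 and 5203 in control tumours (log2 change 0.43, SE 0.15, edgeR adjusted p = 0.505). B2m, the light chain of class I, had 4808 and 4270 in shRNA tumours and 3265 and 3651 in control tumours (log2 change 0.39, adjusted p = 0.551). Ciita, the class II transactivator and the one member below 0, had a log2 change of -0.15. In the other gated cells all 11 class II genes lay above 0 as well, with a median of 0.14.

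No interferon gene passed the test in members. Of 35 type I interferon genes, 25 lay above 0 in members, with a median log2 change of 0.18. In the other gated cells 9 of 35 lay above 0, with a median of -0.26. In the test of the difference between cell sets 33 of 35 lay above 0, against 5706 of 11112 over all genes. Isg15 passed that test (difference 0.56, SE 0.11, edgeR adjusted p = 0.0283). Isg15 had 466 and 328 CPM in members of shRNA tumours and 390 and 317 in those of control tumours, so its groups overlapped. Ifitm3, a membrane antiviral protein, had 1487 and 1612 CPM in shRNA tumours and 1251 and 1139 in control tumours (log2 change 0.37, edgeR adjusted p = 0.509). Of 24 interferon gamma genes tested in members 9 lay above 0, with a median of -0.02. Cxcl9, their most abundant member, had 1893 and 1144 in shRNA tumours and 1289 and 1630 in control tumours, so its groups overlapped.

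No gene of the hypoxia, matrix or cell cycle lists passed. Of 31 hypoxia and glycolysis genes 25 lay above 0, with a median log2 change of 0.14, and of 17 matrix and protease genes 14 lay above 0, with a median of 0.32; without shRNA 1, the library with the most fibroblast RNA in its members, that matrix median was -0.01. The hypoxia median was 0.03 without control 2. The resident-like list had a median of 0.26 over 18 genes, and -0.02 without shRNA 1. Of 28 cell cycle genes, some of which the limits held down, 19 lay below 0 and the median was -0.19, or -0.07 without shRNA 2. Stmn1, a tubulin regulator of dividing cells, had 45.1 and 42.2 CPM in shRNA tumours and 60.1 and 68.0 in control tumours (log2 change -0.56, SE 0.12, edgeR adjusted p = 0.183).

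Complement genes other than C1q were mixed. Of 17 tested in members none passed, 12 lay above 0, and the median log2 change was 0.16, with 0.05 to 0.27 when a library was left out. C3ar1, the receptor for the C3a fragment, had 268 and 279 CPM in shRNA tumours and 256 and 254 in control tumours, and Cfp, which encodes properdin, 262 and 247 against 237 and 244. Itgam, a chain of complement receptor 3, had 312 and 392 in shRNA tumours and 391 and 362 in control tumours. C3, the central component, had 222 and 110 in shRNA tumours and 78.0 and 58.0 in control tumours (log2 change 1.28, edgeR adjusted p = 0.678). Both shRNA values lay above both controls, as in 19.2% of all genes tested, and shRNA 1 held the highest value. In the other gated cells C3 had 226 and 87.4 in shRNA tumours and 131 and 118 in control tumours. C3 passed the test of the difference between cell sets (difference 1.02, SE 0.15, edgeR adjusted p = 0.0011). C3 was named after its values were seen, as were Ciita, Chil3 and Hmox1.

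**Figure D5:**
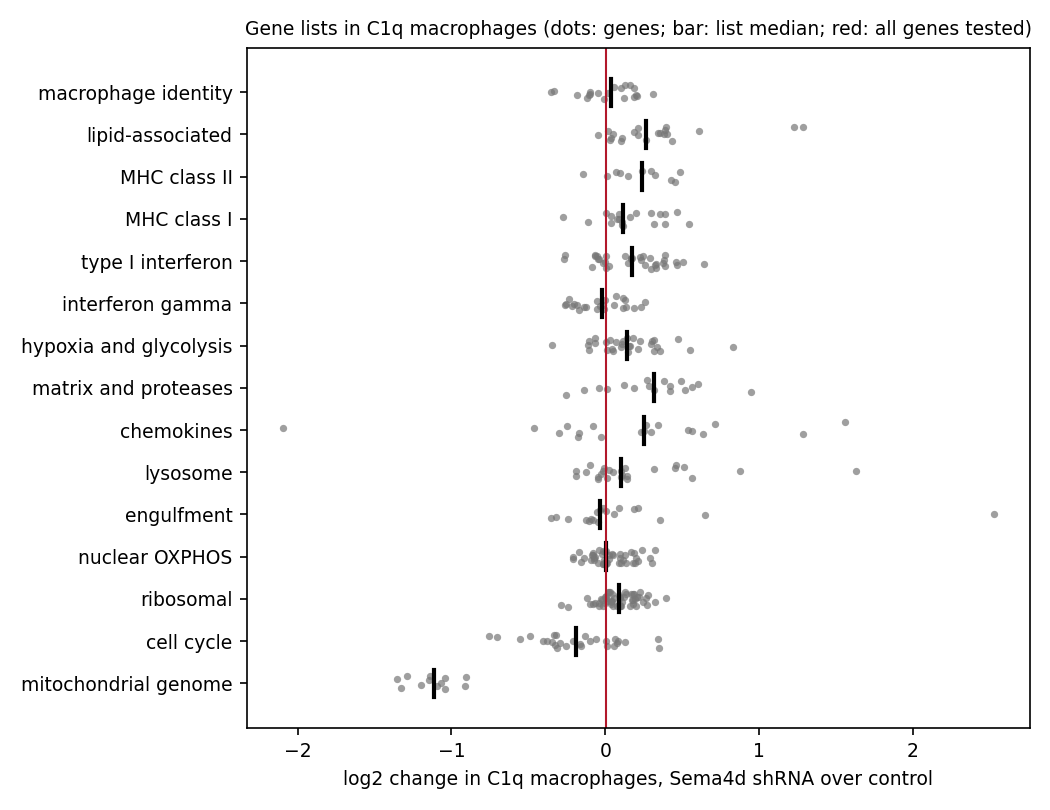
Log2 change in C1q macrophages, Sema4d shRNA over control (x axis), for each gene tested in 15 gene lists (rows): grey dots are genes, black bars the list medians and the red line the median of all genes tested. The mitochondrial list lies apart at -1.12, and the other medians lie between -0.19 and 0.32.

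The shRNA change in members was compared with that in the other gated cells in one fit with library as a block. Of 11112 genes tested, 18 had a higher change in members (0.162%) and 3 a lower one (0.027%) by the edgeR test, or 0.189% in all. Isg15 and C3, given above, were among the 18. The mix of C1q-low cells and C1q cells with Mmp12 in the other set differed between the groups, and its part in this test was not tested. In the other cells alone, 13 genes were higher (0.126%) and 17 lower (0.164%) of 10347, or 0.29% in all. The genes higher there included Nkg7, a lymphocyte granule gene (log2 change 1.84, edgeR adjusted p = 0.0011). All 10 genes of the longer NK-cell list lay above 0 in the other cells, with a median log2 change of 1.68. Of these 10 genes, 4 were called higher. The part of NK cells in the comparison with members was not tested.

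Inhba, the activin A subunit, had the smallest p among the named genes. It had 27.5 and 3.78 CPM in members of shRNA tumours and 3.79 and 1.96 in those of control tumours. In the other cells it had 160 and 28.8 in shRNA tumours and 130 and 47.3 in control tumours. The difference of log2 changes was 2.28 (SE 0.26, edgeR adjusted p = 6.2e-05). Library shRNA 1 held the high value in members, and shRNA 2 had nearly the value of control 1. The test uses members beside other cells of the same library. That log2 ratio for Inhba was -2.54 and -2.93 in shRNA tumours and -5.10 and -4.59 in control tumours. With a library left out the difference ran from 1.93 to 2.46. Saa3, an acute-phase gene, had 43.2 and 13.04 CPM in members of shRNA tumours and 17.8 and 6.30 in those of control tumours. The groups overlapped there, but the log2 ratio of Saa3 to other cells was 0.20 and 0.58 against -1.09 and -2.17. The difference for Saa3 was 1.83 (SE 0.30, edgeR adjusted p = 0.0064). With doublet-marked cells left out the difference for Inhba was 0.99 and did not pass (adjusted p = 0.573).

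In Srxn1 and Mcemp1 both shRNA libraries lay above both controls in members. Mcemp1, a gene of myeloid and mast cell membranes, had 11.9 and 10.3 CPM in members of shRNA tumours and 4.84 and 4.42 in those of control tumours, and 58.4 and 44.1 in the other cells of shRNA tumours and 51.0 and 46.5 in those of control tumours (difference 1.21, SE 0.25, edgeR adjusted p = 0.0404). This call was lost in 9 of 13 alternatives, those that left out each library among them. Srxn1 had 51.7 and 35.3 in the other cells of shRNA tumours, below the 58.2 and 55.1 in those of control tumours. Its difference was 1.201 (SE 0.21, edgeR adjusted p = 0.0064). Gclm, Hmox1, Prdx1 and Prdx5, which like Srxn1 serve the response to oxidants, were also among the 18, a grouping made after their values were seen. Hmox1, heme oxygenase, had 405 and 325 in members of shRNA tumours and 275 and 212 in those of control tumours, and 640 and 550 in the other cells of shRNA tumours and 621 and 602 in those of control tumours.

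Against the C1q cells with Mmp12 alone, an alternative chosen after seeing the data, 9 genes had a higher change in members and none a lower one by the edgeR test, with 275 higher and 185 lower at an unadjusted p under 0.05, and 7 of the 9 were among the 18. Ctsk, Inhba, Slpi, Mcemp1 and Ctla2a lost their call there. Gzmg, a granzyme gene, and Ctla2a were 2 of the 3 genes with a lower change in members, and Gzmg had 245 CPM in the other cells of shRNA 2 against at most 11.9 in the other libraries.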

How the data were processed

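The submitters dissociated the tumours and made DNBelab C droplet libraries, per the labels' protocols. Their processing notes name STAR 2.5.1b and the builds GRCh38 and mm10, without giving each a role, and the file headers name PISA 1.0. The deposited values are raw UMI counts per gene and cell, per the file headers. The members and gene lists were chosen with earlier results of these data known.

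UMIs were summed per library over the members, the other gated cells and the cells without the myeloid adaptors. The sums were tested with edgeR 4.0.16 in R 4.3.3 (TMM scaling, its default filter on low counts, quasi-likelihood test, Benjamini-Hochberg adjustment over all genes tested, limit 0.05). The change in members minus that in other cells was tested in 1 fit with library as a block. CPM values, which are scaled to the same total in each library, use the TMM factors, except in the bands of C1q level. Shares were compared with an exact two-sided permutation test.

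The genes named were the 12 with the largest change in each direction among those past the test with at least 20 CPM, filled to 6 by smallest p, up to 6 in each direction for the difference between cell sets, list members that passed, the 3 most abundant of each list, and fixed genes of the pathway. Beside the other cells they were the 12 of highest and 12 of lowest ratio. The test in members was tested on simulated data of 11361 genes, in which it recovered 11.9%, 68.2% and 95.2% of genes changed by 0.5, 1 and 2 on the log2 scale. For the difference between cell sets, over 10817 genes, it recovered 4.76%, 50.0% and 90.6%. Alternatives were DESeq2 1.42.0, other scaling and filters, other limits, doublet scores, thinning and leaving out each library.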

Additional observations from a re-analysis of the deposited data

Results flagged for a closer look

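For the 8 genes named by the rule for the difference between cell sets, the shRNA change in C1q macrophages differed from that in the other gated myeloid cells by the edgeR test. The difference of log2 changes was 2.76 for Ctsk, 2.28 for Inhba, 1.83 for Saa3, 1.61 for Slpi, 1.43 for Procr and 1.21 for Mcemp1. It was -3.76 for Gzmg and -2.03 for Ctla2a. Against the C1q cells with Mmp12 alone, chosen after seeing the data, Saa3 (1.55) and Procr (1.55) stayed past the test with an adjusted p of 0.0225 each, whereas Ctsk had 0.15, Inhba 1.02, Slpi 0.99, Mcemp1 0.63 and Ctla2a -0.71. Of the 8 calls, 5 were lost without shRNA 2, 2 without shRNA 1, 2 without control 1 and 1 without control 2, and 4 with doublet-marked cells left out. With a library left out the difference for Ctsk ran from 1.53 to 4.20, and its call was lost in 6 of 13 alternatives. The difference for Inhba was 0.99 with doublet-marked cells left out. Ctsk had 4.75 and 1.201 CPM in members of shRNA tumours and 1.33 and 0.491 in those of control tumours, too low for its size to be read closely.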

How the results depend on the processing

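The lower share of C1q macrophages kept its direction under every alternative run, with differences of -15.3 to -8.50 percentage points of all cells when a library was left out. Leaving out a library gave 0 to 273 genes called higher and 16 to 120 called lower in members. Without control 2 no gene was called higher by edgeR (202 at an unadjusted p under 0.05). Without shRNA 1 there were 117 higher and 120 lower, and without shRNA 2 there were 273 and 114. The left-out fits assume that a lone library varies like the others. In the other cells they gave 10 to 93 higher and 16 to 115 lower, and for the difference between cell sets 23 to 57 higher and 2 to 7 lower. With no filter on low counts the calls were 78 higher and 69 lower in members, 59 and 51 in the other cells, and 57 and 9 for the difference. DESeq2 called 20 lower in members. In members, 8 were higher with a C1q limit of 10, 8 with at least 3000 UMIs, and 9 with no UMI of Mmp12, Il1rn and Nos2. Without mitochondrial genes there were 3 higher and 1 lower. For the difference, a C1q limit of 40 gave 11 higher and 1 lower, a limit of 10 gave 6 lower, no UMI of the tumour genes gave 1 lower, and the C1q cells with Mmp12 alone gave 9 higher and 0 lower (185 lower at an unadjusted p under 0.05). The cause of these changes was not tested.

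With the replicate block, 34 genes were called higher and 28 lower in members, and 5 and 11 in the other cells. The labels do not state a pairing, and the deviations of same-numbered libraries from their group means had r of 0.10. With 2 libraries per group both pairs give the same r by construction, so it cannot decide whether the libraries were paired. Of 2360 values for named genes under the alternatives, 2129 kept their call or stayed within the spread. A further 54 lost their call, 49 gained one and 128 moved. A change of sign was counted only for genes called in the main fit, and none of those reversed. Genes not called could change sign. Cxcl9, for example, had log2 changes of -0.35 to 0.38 with a library left out. Tnfrsf9 had an adjusted p of 0.0819 without control 2, Il7r 0.0605 without control 1 and 0.268 without control 2.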
